A study of Mus musculus with 8 samples.

Results

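Core genes of the smooth muscle contractile apparatus were followed in mouse aorta during and after exposure to angiotensin II (AngII). The set holds Acta2, Actg2, Myh11, Myl9, Mylk, Tagln, Cnn1, Lmod1, Smtn and Synpo2, which were chosen by symbol and are 10 of the 35896 genes in the count table. All 10 passed the filter on low counts, together with 17172 other genes. Male C57BL6 mice were given a minipump at 11 weeks of age that released AngII at 2.8 mg/kg/d over 2 weeks. Aortas were taken when the infusion ended (AngII), 2 weeks later (AngII+2W) or 3 weeks later (AngII+3W), and untreated age-matched littermates served as controls (CTRL). Each group had 2 RNA-seq libraries, and each library was made from pooled aortic tissue of 2 mice, so that the data cover 16 mice and show no single animal. RNA came from a part of each aorta, and which part is not given in the sources used here. The age at which the CTRL mice of each library were taken is not given in the sources used here, and the mice of AngII+2W and AngII+3W were older at sacrifice than those of AngII.

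Smooth muscle cells of the arterial media contract when calcium and calmodulin activate myosin light chain kinase, which phosphorylates the regulatory light chain of myosin and lets the myosin filaments pull on actin. Serum response factor and its coactivator myocardin drive many of these genes through a short DNA element, the CArG box. In injured or remodelled arteries, smooth muscle cells can lower the contractile program, a change known as phenotypic switching.

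Promoter sequence was at hand for 7 of the 10 genes (RefSeq, GRCm38.p6). The 250 bases before the start site were searched for a CArG box, read as a C pair and a G pair around 6 inner letters of which at least 5 are A or T, a form that reads the same on both strands. Acta2 and Myl9 held such boxes and Cnn1, Lmod1, Mylk, Smtn and Synpo2 held none in this window. The windows of Mylk (chr16:34784700-34784949) and Smtn (chr11:3539293-3539542) lay inside these genes. The sequence before the 5′ ends of these genes was not searched. Over all 32851 promoters of the same length, 8.59% had at least 1 such box and 0.670% had 2 or more. The sites of Acta2 and Myl9 are shown because they are the element through which serum response factor is known to act, each with 10 bases on both sides, 5′ to 3′ on the strand of the gene and with the box in capitals.
Acta2, 84 bases before the start: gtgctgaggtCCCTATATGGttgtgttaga
Acta2, 34 bases before the start: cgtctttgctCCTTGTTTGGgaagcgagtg
Myl9, 161 bases before the start: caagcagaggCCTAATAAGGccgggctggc
Myl9, 99 bases before the start: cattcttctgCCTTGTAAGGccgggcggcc
The Acta2 sites lie at chr19:34255438-34255467 and chr19:34255388-34255417 on the reverse strand, within annotated exon sequence of Acta2. The Myl9 sites lie at chr2:156775293-156775322 and chr2:156775355-156775384 on the forward strand, outside annotated exons. The first Myl9 box has A or T at all 6 inner positions, a stricter form found in 1.47% of all promoters, and the other boxes have a single C or G inside. A match is a description of the letters, and binding was not measured.

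Libraries held between 18130441 and 21498200 counts, and the 10 genes together took between 0.207% and 1.13% of them. AngII+3W replicate 1 stood apart from the other libraries. Its summed level of 6 skeletal muscle genes was 2359 CPM (counts per 1000000 counts, TMM-normalized), against 5.32 to 73.8 CPM in the others, and mitochondrial genes took 18.3% of its counts, against 8.15% to 13.5%. The summed CPM of cardiac muscle genes was 4289 and 1930 (CTRL), 1112 and 708 (AngII), 145 and 6.44 (AngII+2W), and 4999 and 306 (AngII+3W). The defining marker Acta1 of skeletal muscle had 380.3 CPM in AngII+3W replicate 1 and at most 2.05 CPM elsewhere.

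In untreated aorta, compared per kilobase of the longest coding transcript, Acta2 (smooth muscle α-actin) was highest in CTRL with 1303 ± 282 CPM per kb (SD, n = 2). It was followed by Tagln (585 ± 91.7), Myh11 (522 ± 94.8) and Myl9 (469 ± 59.3). The libraries of Tagln overlapped those of Myh11, and those of Myh11 overlapped those of Myl9, while both Tagln libraries were above both Myl9 libraries. Then came Smtn (179.9 ± 1.10), Cnn1 (127 ± 21.6), Mylk (95.7 ± 19.4), Synpo2 (81.6 ± 14.7), Lmod1 (79.1 ± 1.89) and Actg2 (49.1 ± 13.5) on the same per-kb scale. Libraries of Synpo2 overlapped those of Mylk and of Lmod1, and Synpo2 and Lmod1 changed places when all coding exons were used as length. The cytoplasmic β-actin gene Actb had 1076 ± 6.34 CPM per kb in CTRL, so that its level was near that of Acta2.

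After 2 weeks of AngII, the contractile genes fell to between 20.3% (Actg2) and 40.5% (Smtn) of their CTRL mean. At a false discovery rate (FDR) below 0.05 (edgeR's quasi-likelihood test, adjusted by Benjamini-Hochberg over the 17182 genes tested), 9 of the 10 were lower than in CTRL, where 2.2% of all genes tested were called lower. In all 10, both AngII libraries were below both CTRL libraries, a pattern that 24.9% of all genes showed. The median log2 fold change of the 10 was -2.15, and that of all genes was -0.008. In bulk tissue, fewer smooth muscle cells and less RNA per cell cannot be told apart.

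**Figure D1:**
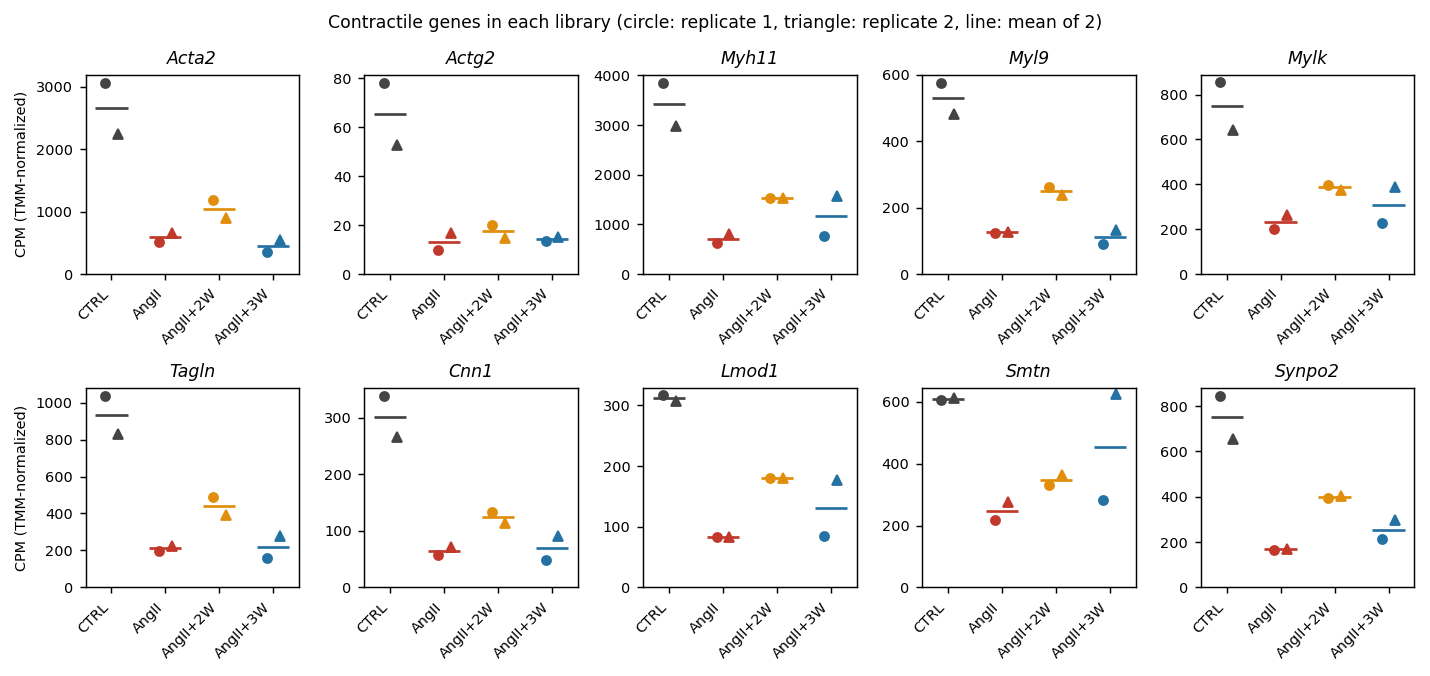
Level of each of the 10 genes in CPM (y axis, linear from 0) in the libraries of the 4 groups (x axis), with replicate 1 as circles, replicate 2 as triangles and the mean of 2 as a line. Every gene was lower in both AngII libraries than in both CTRL libraries, and the AngII+3W libraries of Smtn and Myh11 lay far apart.

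The actin genes showed falls of similar size. Acta2 (chromosome 19, 34241090 to 34255590, reverse strand, GRCm38) had 3057 and 2246 CPM in the CTRL libraries and 506 and 664 CPM in the AngII libraries. The groups were far apart, with a log2 fold change of -2.18 ± 0.30 (SE, FDR = 0.0133). Actg2, the γ-actin of smooth muscle (chromosome 6, 83512905 to 83536265, reverse strand), had 78.2 and 52.7 CPM in CTRL and 9.93 and 16.6 CPM in AngII. It was the least abundant of the 10 and had the lowest estimate, a log2 fold change of -2.30 ± 0.30 (FDR = 0.0116). The coding sequences of actin genes resemble each other, with 84.2% identity between Acta2 and Actg2 over 1143 bases, so that short reads from their shared parts could be split between them.

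Among the myosin genes, Myh11, the smooth muscle heavy chain (chromosome 16, 14194535 to 14291372, reverse strand), had 3856 and 2978 CPM in CTRL and 619 and 804 CPM in AngII. Its log2 fold change was -2.26 ± 0.35 (FDR = 0.0172). Myl9, the regulatory light chain (chromosome 2, 156775420 to 156781658, forward strand), had 576 and 482 CPM in CTRL and 123 and 128 CPM in AngII. Both AngII libraries of Myl9 were close together, and the log2 fold change was -2.08 ± 0.20 (FDR = 0.00530). Mylk, the kinase that phosphorylates this light chain (chromosome 16, 34745210 to 35002420, forward strand), had 856 and 642 CPM in CTRL and 202 and 265 CPM in AngII. It fell less, by 1.68 ± 0.28 on the log2 scale (FDR = 0.0208).

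The other genes code for proteins that bind actin filaments. Tagln (transgelin, chromosome 9, 45929619 to 45936058, reverse strand) had 1036 and 829.5 CPM in CTRL and 198 and 223 CPM in AngII (log2 fold change -2.15 ± 0.28, FDR = 0.0116). Cnn1 (calponin, chromosome 9, 22099216 to 22109630, forward strand) had 339 and 266 CPM in CTRL and 57.2 and 71.9 CPM in AngII (log2 fold change -2.23 ± 0.30, FDR = 0.0124). Their means were 22.5% and 21.4% of CTRL, near the 22.1% of Acta2. Lmod1, a leiomodin that starts new actin filaments (chromosome 1, 135324807 to 135368065, forward strand), had 317 and 307 CPM in CTRL and 82.6 and 82.5 CPM in AngII. Its replicates were nearly identical and its log2 fold change was -1.92 ± 0.30 (FDR = 0.0174). Synpo2, an actin-bundling protein (chromosome 3, 123076519 to 123236149, reverse strand), had 846 and 656 CPM in CTRL and 166 and 171 CPM in AngII. It shared the lowest FDR of the 10 with Myl9, at a log2 fold change of -2.16 ± 0.20 (FDR = 0.00530).

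Smtn, which codes for the actin-binding protein smoothelin (chromosome 11, 3517523 to 3540612, reverse strand), was the gene not called. It had 606 and 612 CPM in CTRL and 217 and 277 CPM in AngII. The groups did not overlap, and the estimate of -1.30 ± 0.34 on the log2 scale did not pass the test (FDR = 0.0712, 95% interval -2.08 to -0.52). It was called by DESeq2, by the likelihood ratio test, in the fit of only the CTRL and AngII libraries, with no filter on low counts and without either AngII+3W library. Exons of Tagln, Smtn and Mylk overlap genes on the opposite strand, and whether strand was used in counting is not given in the sources used here.

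The count of 9 depended on the libraries. It was 0 without AngII replicate 2, 1 without CTRL replicate 1 and 3 without AngII replicate 1, in fits that called 0%, 0.162% and 1.28% of all genes, while the log2 fold change of Acta2 stayed between -2.40 and -1.94 over all fits without 1 library. The fall in AngII came with higher levels of some markers of other cell types. Adventitial fibroblast genes summed to 2140 and 1292 CPM in CTRL and 7997 and 12941 CPM in AngII. Of these sums, Col1a1 alone held 1359 and 828 CPM in CTRL and 6639 and 11178 CPM in AngII. All 6 estimates were higher, and 2 of 6 (Lum and Col1a1) were called higher, against 2.9% of all genes. Macrophage genes summed to 324 and 241 CPM in CTRL and 634 and 1061 CPM in AngII, and 3 of 6 were called higher, against 2.9% of all genes. Endothelial genes summed to between 934 and 1249 CPM in all libraries, and 0 of 6 passed the test in AngII at an unadjusted p below 0.05, against 20.2% of all genes. Schwann cell and nerve genes summed to 99.3 and 98.1 CPM in the CTRL libraries and to 70.8 and 57.0 CPM in the AngII libraries. All 6 of their estimates were lower and 1 of 6 was called lower, against 2.2% of all genes. No marker of these lists was at 0 in any library, and the part of other cell types in the fall of the contractile genes was not tested.

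**Figure D2:**
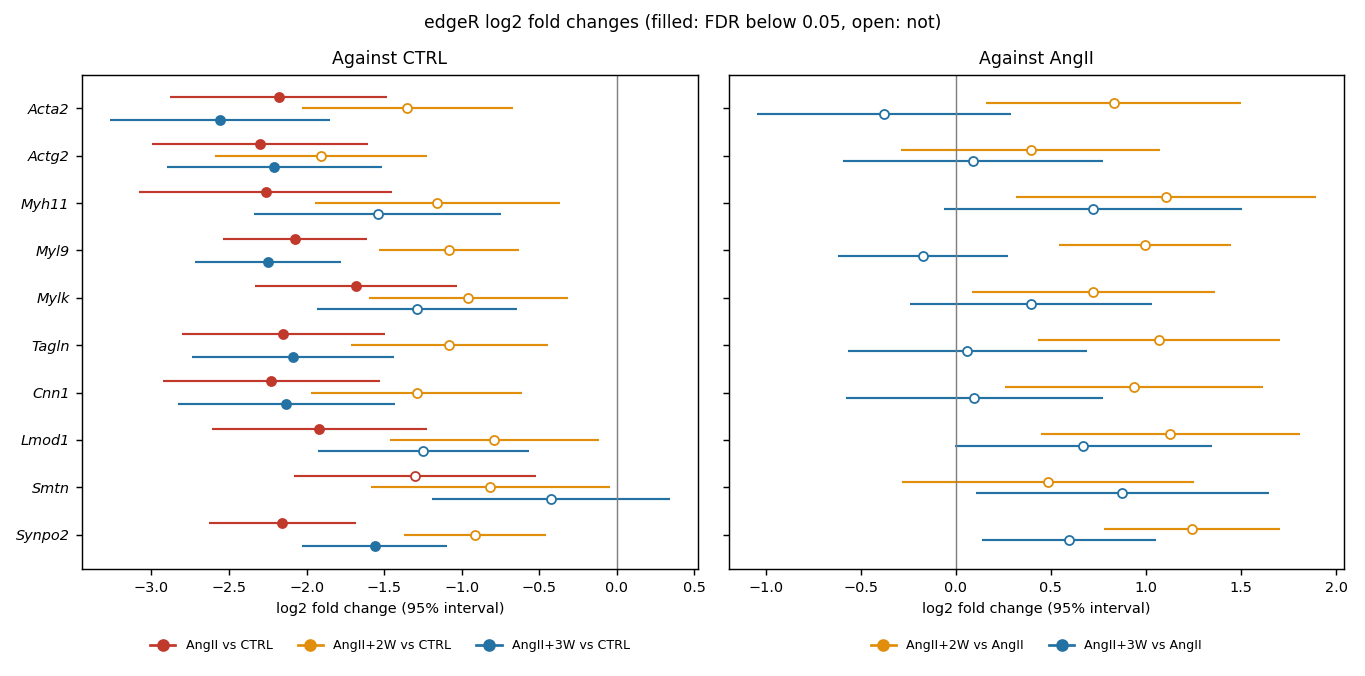
Log2 fold changes (x axis) of the 10 genes (y axis) against CTRL (left) and against AngII (right), as points with 95% intervals from edgeR, filled where the FDR was below 0.05. Filled points mark 9 genes in AngII and 6 in AngII+3W against CTRL, and no gene is filled for AngII+2W or against AngII.

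At 2 weeks after the infusion, the contractile genes lay between their CTRL and AngII levels. Their mean level was between 26.6% (Actg2) and 57.8% (Lmod1) of the CTRL mean. None of the 10 had an FDR below 0.05 against CTRL in edgeR, where 0% of all genes were called, and the lowest FDR was 0.174, for Myl9 and Actg2. At an unadjusted p below 0.05, all 10 were lower, against 6.18% of all genes, and both AngII+2W libraries were below both CTRL libraries in all 10, against 22.2% of all genes. DESeq2 called 8 of the 10 lower, where it called 2.16% of all genes, and edgeR's likelihood ratio test called 7, where it called 2.44%. Without either AngII+3W library, 8 were called, in fits that called 1.47% and 1.54% of all genes.

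Actg2 was farthest from CTRL at this time, with 20.3 and 14.6 CPM and a log2 fold change of -1.91 ± 0.29 (FDR = 0.174). Acta2 had 1184 and 895 CPM, a log2 fold change of -1.35 ± 0.29 (FDR = 0.220), and Cnn1 had 134 and 113 CPM with a log2 fold change of -1.29 ± 0.29 (FDR = 0.238). The means of these 3 genes lay between 26.6% and 40.9% of CTRL. For Myl9, the libraries held 263 and 238 CPM, with a log2 fold change of -1.08 ± 0.19 (FDR = 0.174). Tagln had 489 and 394 CPM (log2 fold change -1.08 ± 0.27, FDR = 0.279) and Myh11 had 1529 and 1535 CPM (log2 fold change -1.16 ± 0.34, FDR = 0.305). The AngII+2W replicates of Myh11 were nearly equal, while those of its CTRL group were not. Mylk had 397 and 374 CPM (log2 fold change -0.96 ± 0.28), Synpo2 had 396 and 402 CPM (-0.91 ± 0.20), Smtn had 329.5 and 362 CPM (-0.82 ± 0.33) and Lmod1 had 181 and 180.3 CPM (-0.79 ± 0.29). Lmod1, Smtn, Synpo2 and Mylk were the 4 genes closest to CTRL, with means from 51.5% to 57.8% of it.

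Compared directly with AngII, all 10 estimates in AngII+2W were higher and none passed the test, where 0.0233% of all genes were called higher. The smallest FDR was that of Synpo2, with a log2 fold change of 1.24 ± 0.20 (FDR = 0.0655), followed by Myl9 (1.00 ± 0.19, FDR = 0.0802) and Tagln (1.07 ± 0.27, FDR = 0.132). The estimate was 0.49 ± 0.33 for Smtn (95% interval -0.28 to 1.25) and 0.39 ± 0.29 for Actg2 (95% interval -0.29 to 1.07). At an unadjusted p below 0.05, 8 of the 10 were higher, against 6.57% of all genes, and in 9 of the 10 both AngII+2W libraries were above both AngII libraries, against 26.8% of all genes. Actg2 was the gene whose libraries overlapped. This comparison used the same AngII libraries as the comparison with CTRL, so that the values of the 2 comparisons are not independent. A fit of the AngII and AngII+2W libraries alone called 7 of the 10, DESeq2 also called 7 and the likelihood ratio test called 5, where these fits called 5.34%, 3.75% and 4.46% of all genes. Without either AngII+3W library, 4 were called, against 1.48% and 1.46% of all genes.

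Scaled to each gene's own loss in AngII, the share regained in AngII+2W ranged from 7.99% (Actg2) to 42.6% (Lmod1), with a median of 29.9%. The loss is the CTRL mean minus the AngII mean in CPM, and a share of 100% would be the CTRL mean. Lmod1 and Synpo2 had the highest shares in both AngII+2W libraries, 42.7% and 42.6% for Lmod1 and 39.0% and 40.0% for Synpo2. Myh11 had 30.2% and 30.4%, Acta2 had 29.0% and 15.0%, and Actg2 had 13.4% and 2.58%. Adventitial fibroblast genes summed to 4172 and 2779 CPM at this time and macrophage genes to 426 and 436 CPM, both below AngII and above CTRL, and the part of these in the values of AngII+2W was not tested.

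**Figure D3:**
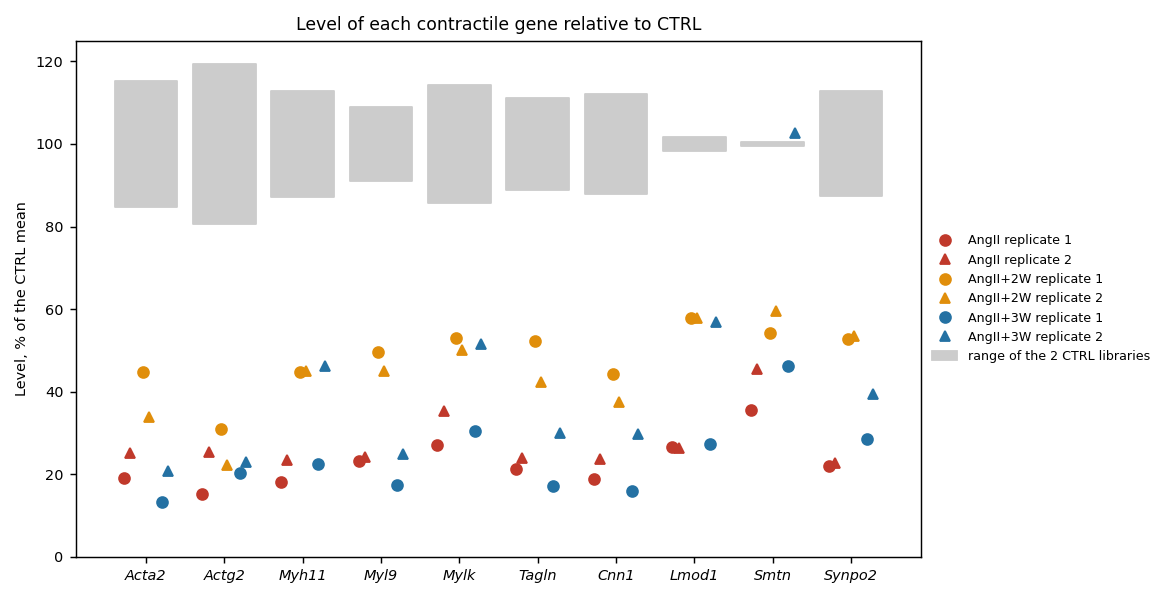
Level of each gene as a percentage of its CTRL mean (y axis, linear from 0) for the AngII, AngII+2W and AngII+3W libraries, with circles for replicate 1 and triangles for replicate 2, and the range of the 2 CTRL libraries in grey. Of these 6 libraries, AngII+3W replicate 2 alone reached CTRL levels, for Smtn, where it lay at 102.7%.

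At 3 weeks after the infusion, the mean levels of the genes ran from 17.0% (Acta2) to 74.4% (Smtn) of the CTRL mean. Against CTRL, 6 of the 10 were called lower (Acta2, Tagln, Cnn1, Myl9, Actg2 and Synpo2), where 0.268% of all genes tested were called lower. In 9 of the 10, both AngII+3W libraries were below both CTRL libraries, against 18.3% of all genes, and the exception was Smtn.

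The count of 6 changed with the libraries and the settings. None of the 10 had an FDR below 0.05 without CTRL replicate 1, without either AngII library, without either AngII+2W library or without AngII+3W replicate 1, the library with the skeletal muscle transcripts. In these fits, 0% of all genes were called, except 0.00564% without AngII+3W replicate 1. All 10 were called without AngII+3W replicate 2, where 2.59% of all genes were called. The count was also 0 in a fit of only the CTRL and AngII+3W libraries (0% of all genes called), with the replicate block (0.0233%) and when library totals replaced TMM normalization (0.00582%). Still, the log2 fold changes moved little, with Acta2 between -2.58 and -2.56 over all settings other than leaving out a library. In the fits without 1 library, Acta2 lay between -2.98 and -2.27 and Myl9 between -2.59 and -2.01.

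Acta2 had 349.7 and 550.4 CPM in AngII+3W, both in the range of or below AngII, and a log2 fold change against CTRL of -2.56 ± 0.30 (FDR = 0.0455). Myl9 had 91.3 and 131 CPM, with a log2 fold change of -2.25 ± 0.20 (FDR = 0.0357), the smallest FDR of the 10. Actg2 had 13.3 and 15.0 CPM and a log2 fold change of -2.21 ± 0.30 (FDR = 0.0455). These 3 genes, an actin pair and the regulatory light chain, were at 17.0%, 21.0% and 21.6% of their CTRL means. Cnn1 had 47.9 and 90.2 CPM (log2 fold change -2.13 ± 0.30, FDR = 0.0462), and Tagln had 159 and 279.7 CPM (-2.09 ± 0.28, FDR = 0.0455). Synpo2 had 213 and 295 CPM and was less far from CTRL, at -1.56 ± 0.20 (FDR = 0.0455).

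The heavy chain, the kinase, the leiomodin and smoothelin did not pass the quasi-likelihood test in AngII+3W. DESeq2 and the likelihood ratio test each called 9 of the 10, Myh11, Mylk and Lmod1 included, where they called 3.5% and 3.24% of all genes. Myh11 had 766 and 1579.5 CPM, with a log2 fold change of -1.54 ± 0.34 against CTRL (FDR = 0.118, 95% interval -2.34 to -0.75). Mylk had 227 and 387 CPM (-1.29 ± 0.28, FDR = 0.111, 95% interval -1.93 to -0.64) and Lmod1 had 85.3 and 178 CPM (-1.25 ± 0.29, FDR = 0.131, 95% interval -1.93 to -0.57). The intervals of all 3 lay below 0. Smtn had 281 and 625 CPM, of which the second was above both CTRL libraries, and a log2 fold change of -0.43 ± 0.33 (FDR = 0.639, 95% interval -1.19 to 0.34). Without AngII+3W replicate 1 its estimate was 0.035.

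The AngII+3W replicates differed in the same direction for all 10 genes, with replicate 2 above replicate 1 by 1.12-fold (Actg2) to 2.22-fold (Smtn). Myh11 and Lmod1 differed by 2.06-fold and 2.08-fold, and Acta2 and Myl9 by 1.57-fold and 1.44-fold. CTRL replicate 1 was above replicate 2 for 9 genes, by up to 1.48-fold (Actg2). In AngII+3W, the lower replicate was the library with 2359 CPM of skeletal muscle genes. It also held 4999 CPM of cardiac muscle genes, against 306 CPM in replicate 2. The part of these in its contractile gene levels was not tested. Fibroblast genes summed to 1137 CPM in replicate 1 and 3022 CPM in replicate 2, and macrophage genes to 208 and 357 CPM, so that these lists were also lower in replicate 1. Both lists ranged around CTRL in AngII+3W, and none of their genes passed the test against CTRL, where 0.285% of all genes were called. Schwann cell and nerve genes summed to 149.7 and 141.7 CPM in AngII+3W, above all other libraries. Of these, 4 of 6 were called higher than in AngII, where 0.285% of all genes were called higher, and 0 of 6 against CTRL. The part of this in the values of the contractile genes was not tested.

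Compared directly with AngII, 8 of the 10 estimates in AngII+3W were higher and 2 were lower, and none passed the test, where 1.61% of all genes were called. The lower estimates were those of Acta2 (log2 fold change -0.38 ± 0.29, FDR = 0.529, 95% interval -1.05 to 0.29) and Myl9 (-0.17 ± 0.19, FDR = 0.676, 95% interval -0.62 to 0.28). Tagln, Actg2 and Cnn1 were at 0.06 ± 0.27, 0.09 ± 0.29 and 0.10 ± 0.29. Higher estimates were those of Smtn (0.88 ± 0.33, FDR = 0.228), Myh11 (0.72 ± 0.34, FDR = 0.316), Lmod1 (0.67 ± 0.29, FDR = 0.284) and Synpo2 (0.60 ± 0.20, FDR = 0.177). Smtn and Synpo2 had an unadjusted p below 0.05, which makes 2 of the 10, against 7.41% of all genes that were higher at this level. The share of the loss regained in AngII+3W had a median of 8.08% over the genes, and ran from -6.52% for Acta2, below its AngII mean, to 57.0% for Smtn. It was between -11.4% and 9.51% in replicate 1 and between -1.67% and 104% in replicate 2, so that only replicate 2 held high values.

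Set against AngII+2W, the estimates at 3 weeks were lower for 9 of the 10 genes, and none passed the test, where 0% of all genes were called. The lowest were Acta2 (log2 fold change -1.21 ± 0.29, FDR = 0.391), Myl9 (-1.17 ± 0.20, FDR = 0.173), Tagln (-1.01 ± 0.27, FDR = 0.391) and Cnn1 (-0.84 ± 0.29, FDR = 0.454). At an unadjusted p below 0.05, 5 of the 10 were lower, against 4.22% of all genes, and in 6 both AngII+3W libraries were below both AngII+2W libraries, against 19.7% of all genes. DESeq2 called 3 of them and the likelihood ratio test 2, where they called 1.24% and 1.59% of all genes. Smtn had a positive estimate of 0.39 ± 0.33, with a 95% interval from -0.38 to 1.16. Without AngII+3W replicate 2, 5 were called, against 2.42% of all genes.

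The make-up of the set differed between the groups. The share of Acta2 in the summed CPM of the 10 genes was 26.4% and 24.8% (CTRL), 23.2% and 24.6% (AngII), 24.1% and 19.9% (AngII+2W), and 15.6% and 13.3% (AngII+3W). Both AngII+3W libraries were thus below the other 6, although they differed widely in their summed level. Smtn went the other way, with 5.24% and 6.74% (CTRL), 9.95% and 10.2% (AngII), 6.70% and 8.03% (AngII+2W), and 12.6% and 15.1% (AngII+3W). Myh11 held between 28.4% and 38.2% in all libraries and was above Acta2 in each. Because these are shares of counts, long transcripts weigh more in them, and they are given without a test.

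**Figure D4:**
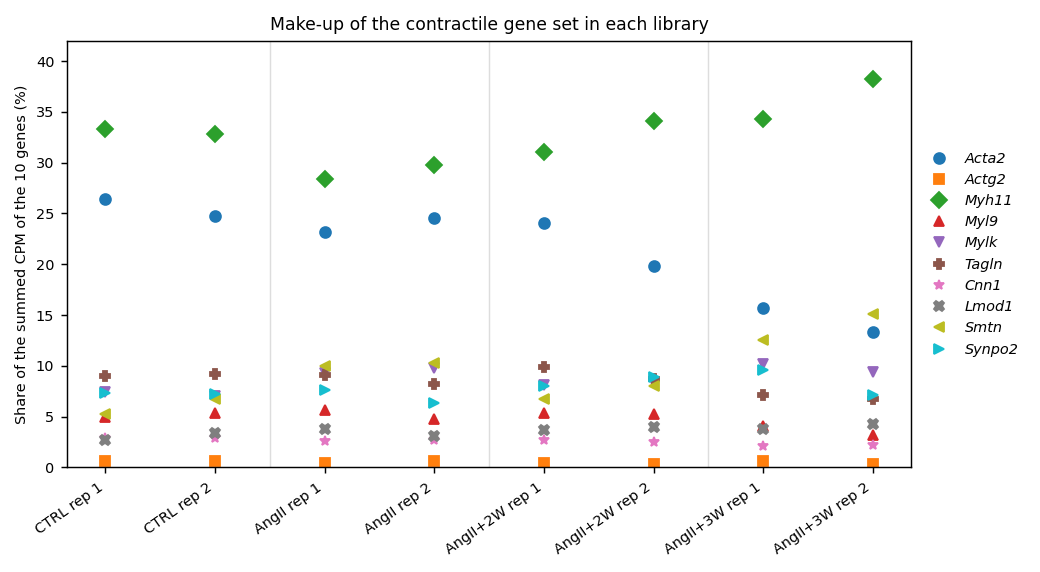
Share of each gene in the summed CPM of the 10 genes (y axis, linear from 0) in each of the 8 libraries (x axis). The share of Acta2 was lowest, and that of Smtn highest, in both AngII+3W libraries.

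Across the 8 libraries, the genes moved closely together. The Pearson correlation of each gene with the mean of the other 9, on standardised log2(CPM + 1), was between 0.92 and 0.99 for 9 genes and 0.79 for Smtn. The points share the groups, so that these correlations describe the fall in AngII as much as differences between libraries. Of 11715 genes with a mean of at least 5 CPM, those most like the mean of the 10 were Scube3 (Pearson r = 0.995), Igsf9b (0.994), Flna (0.990), Bcam (0.990), Pbxip1 (0.988), Mcam (0.988), Ptpn21 (0.988) and Marveld1 (0.986). Flna, which codes for the actin crosslinker filamin A, had CPM values of 5849.5 and 4711 (CTRL), 1377 and 1803 (AngII), 2694 and 2488 (AngII+2W), and 1377 and 2808 (AngII+3W).

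Of 25 other genes of smooth muscle tested, the 3 groups in the order of time had 10, 0 and 2 called lower than CTRL. Of all genes, 2.2%, 0% and 0.268% were called lower. The median log2 fold changes of the 25 were -1.31, -0.96 and -0.90, and 3, 3 and 4 estimates were above CTRL. In this list, Pln and Casq2 followed the cardiac muscle genes over the libraries. Pln had CPM values of 194 and 47.8 (CTRL), 34.7 and 14.6 (AngII), 8.54 and 4.56 (AngII+2W), and 253 and 12.7 (AngII+3W). The medians include such genes, and their part in the medians was not tested. Itga8, an integrin chain of smooth muscle, had CPM values of 1587 and 1087 (CTRL), 237 and 262 (AngII), 737 and 634 (AngII+2W), and 236 and 390.0 (AngII+3W). Its log2 fold change was -2.42 ± 0.29 at the end of the infusion (FDR = 0.00897) and -2.09 ± 0.29 at 3 weeks (FDR = 0.0455). Tpm2, a tropomyosin, fell by 1.96 ± 0.20 on the log2 scale in AngII (FDR = 0.00663). Gucy1b1, a subunit of the nitric oxide receptor, had a log2 fold change of -1.58 ± 0.17 at the end of the infusion (FDR = 0.00753) and -1.36 ± 0.17 at 3 weeks (FDR = 0.0455).

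Of 25 regulators of contraction tested, 7, 0 and 1 were called lower than CTRL in the 3 groups in the order of time. Of all genes, 2.2%, 0% and 0.268% were called lower. The median log2 fold changes of the 25 regulators were -0.50, -0.45 and -0.34. The regulatory subunits of myosin phosphatase, which reverses the action of Mylk, were among those that fell in AngII. Ppp1r12b had a log2 fold change of -1.61 ± 0.19 (FDR = 0.00779) and Ppp1r12a one of -1.54 ± 0.21 (FDR = 0.0121). Kcnmb1, the β subunit of a calcium-activated potassium channel, had CPM values of 66.7 and 51.8 (CTRL), 14.0 and 16.3 (AngII), 42.7 and 29.4 (AngII+2W), and 13.7 and 19.8 (AngII+3W). It was the gene of this list called lower in both AngII (log2 fold change -1.97 ± 0.25, FDR = 0.0108) and AngII+3W (-1.82 ± 0.25, FDR = 0.0455). Ryr2, also in this list, was high in the libraries rich in cardiac muscle genes. It had CPM values of 693 and 311 (CTRL), 209 and 152 (AngII), 95.3 and 76.7 (AngII+2W), and 775 and 148 (AngII+3W). Its part in the medians was not tested.

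Among 20 tested transcription regulators of these genes, 4 were called lower and 1 higher in AngII, and 0 were called in AngII+2W or AngII+3W. Of all genes, 2.2% were called lower and 2.9% higher in AngII. Myocd (myocardin) had 203 and 94.1 CPM in CTRL and 27.9 and 33.8 CPM in AngII, for which the log2 fold change was -2.27 ± 0.35 (FDR = 0.0174). It had 61.9 and 55.4 CPM in AngII+2W and 41.3 and 59.3 CPM in AngII+3W, all between the AngII and CTRL libraries, with a log2 fold change of -1.56 ± 0.34 in AngII+3W (FDR = 0.115). Srf had 50.7 and 48.4 CPM in CTRL and 25.5 and 27.3 CPM in AngII (log2 fold change -0.91 ± 0.15, FDR = 0.0208), and its AngII+3W libraries held 24.3 and 24.3 CPM. Elk3, a cofactor of serum response factor, was the gene called higher, with a log2 fold change of 0.79 ± 0.16 in AngII (FDR = 0.0348).

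The cytoplasmic and striated relatives of the contractile genes were tested as a contrast. Of 21 tested, 3 were called lower in AngII and 0 in AngII+2W or AngII+3W, with median log2 fold changes of -0.87, -0.60 and -0.41. Of all genes, 2.2%, 0% and 0.268% were called lower in these groups. Actb had 1076 ± 6.34 CPM per kb (CTRL), 844 ± 59.4 (AngII), 767 ± 71.5 (AngII+2W) and 535 ± 64.4 (AngII+3W), each with n = 2 and the SD. It was thus higher per kb than Acta2 in each group after CTRL. Myl6, the essential light chain used in smooth muscle and other cells, was called lower in AngII (log2 fold change -1.21 ± 0.17, FDR = 0.0152). The others called lower were the kinases Mylk4 (-2.15 ± 0.30, FDR = 0.0136) and Mylk2 (-1.30 ± 0.19, FDR = 0.0152), related to Mylk. Actc1 and Acta1, the actins of heart and skeletal muscle, followed the libraries with cardiac or skeletal transcripts, with 407 and 25.5 CPM per kb of Actc1 and 263 and 0.594 CPM per kb of Acta1 in the AngII+3W libraries. Lmod2 also followed the cardiac muscle genes. It had CPM values of 57.3 and 27.5 (CTRL), 12.4 and 6.07 (AngII), 2.33 and 0.107 (AngII+2W), and 74.6 and 3.92 (AngII+3W). The medians of this list include such genes, and their part in the medians was not tested.

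**Figure D5:**
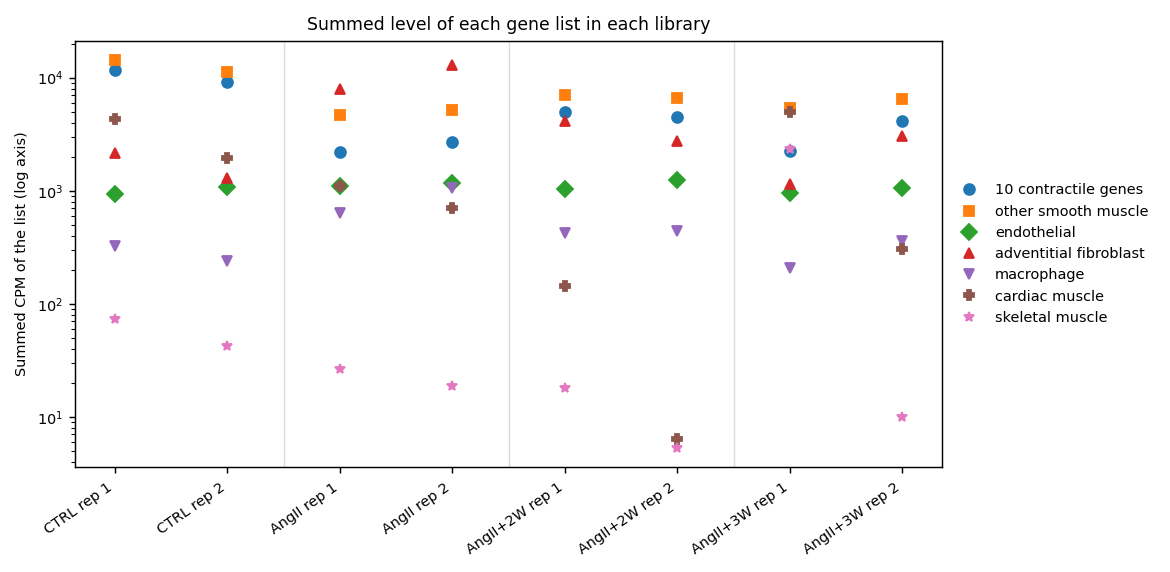
Summed CPM of the 10 contractile genes and of 6 gene lists (y axis, log scale) in each of the 8 libraries (x axis). The contractile genes were lowest in both AngII libraries and AngII+3W replicate 1, fibroblast genes were highest in AngII, and skeletal muscle genes reached 2359 CPM in AngII+3W replicate 1.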

How the data were processed

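RNA-seq libraries from aortas of 16 mice, pooled in pairs, were grouped by their labels into CTRL, AngII, AngII+2W and AngII+3W (n = 2 each). The authors depleted ribosomal RNA, sequenced all libraries in a single lane, estimated transcript abundance with Salmon on GRCm38 and summed it to genes with tximeta, and the deposited table holds estimated counts per gene, as whole numbers without normalization. Mapping to spliced transcripts leaves intronic reads out, and reads of similar genes are split by the model.

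Genes were filtered with filterByExpr (17182 of 35896 kept), scaled by TMM and tested with edgeR 4.0.16 in 1 quasi-likelihood model of all 8 libraries, with 4 residual degrees of freedom, Benjamini-Hochberg adjustment and a threshold of FDR 0.05. SE is the log2 fold change over the square root of F. The 6 comparisons share groups. With 2 libraries against 2, the smallest p of an exact permutation test is 0.33, so that none was run. P-values measure the spread between pools of mice. The script was tested on simulated counts. Alternatives used DESeq2 1.42.0, limma 3.58.1 (voom), other scalings and filters, a replicate block and leaving out libraries.

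The 10 genes, the gene lists and the tests were chosen with earlier results of these data known. All 10 genes are named, with up to 4 genes of each list by smallest p in AngII, tested actin and myosin light chain relatives, and the 8 genes most alike. Pln, Casq2, Ryr2 and Lmod2 are named in addition because they followed the cardiac muscle genes. Lymphocyte and adipocyte lists were also summed, at 13.2 to 20.2 and 4292 to 6641 CPM per library. Positions and transcript lengths are from GENCODE on GRCm38, the build of the files.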

Additional observations from a re-analysis of the deposited data

Results flagged for a closer look

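Acta2 was singled out because both AngII+2W libraries lay above the AngII mean and both AngII+3W libraries lay below it, so that the effects at the 2 times after the infusion had opposite signs. The difference between these times, tested in edgeR as AngII+3W against AngII+2W, was -1.21 on the log2 scale (FDR = 0.391) and did not pass the threshold. DESeq2 and edgeR's likelihood ratio test called this difference, where they called 1.24% and 1.59% of all genes. Acta2 was picked by the same values that were then tested, so that these calls are no independent support. Over the fits without 1 library, the difference ranged from -1.62 to -0.92.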

How the results depend on the processing

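Over 6 comparisons, the direction of each gene was the same in all settings other than leaving out a library. For AngII against CTRL, 9 genes were called, where 5.1% of all genes were called. Shares of all genes called are given in brackets below. Leaving out each library changed the count, with the median log2 fold change of the 10 genes between -2.325 and -1.952. For AngII+2W against CTRL, 0 were called (0%), DESeq2 called 8 (2.16%) and edgeR's likelihood ratio test 7 (2.44%). Leaving out each library in turn put the median of the 10 genes between -1.216 and -0.918. For AngII+3W against CTRL, 6 were called (0.285%). Library totals alone (0.00582%) and a fit of only the 2 groups compared (0%) called 0. Leaving out each library changed the count, with the median between -2.279 and -1.546. For AngII+2W against AngII, 0 were called (0.163%), and no filter on low counts gave 2 (0.991%). DESeq2 gave 7 (3.75%), the likelihood ratio test 5 (4.46%) and a fit of only the 2 groups 7 (5.34%). The count depended on the library left out and was at most 4, without either AngII+3W library (1.48% and 1.46%). For AngII+3W against AngII, 0 were called (1.61%), and the settings other than leaving out a library gave 0 (0% to 6.22%). Leaving out each library put the median between -0.068 and 0.613. For AngII+3W against AngII+2W, 0 were called (0%), DESeq2 called 3 (1.24%) and the likelihood ratio test 2 (1.59%). The median lay between -1.087 and -0.327 when each library was left out in turn. The cause of these differences was not tested.

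Whether the replicate numbers pair the mice of different groups is not given in the sources used here. The correlation over genes of the replicate differences was between -0.02 and 0.39 for the pairs of groups over all genes, and between -0.54 and 0.71 over the 10 genes. With the replicate block, 9, 0 and 0 genes were called against CTRL in the groups AngII, AngII+2W and AngII+3W, against 5.06%, 0% and 0.0233% of all genes.

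Estimates that changed sign did so when 1 library was left out, and none of them had passed the test. In AngII+3W against CTRL, Smtn ranged from -1.17 to 0.035 on the log2 scale. In AngII+3W against AngII, Tagln ranged from -0.45 to 0.42, Cnn1 from -0.48 to 0.49, Myl9 from -0.51 to 0.074, Actg2 from -0.26 to 0.50, Lmod1 from -0.0019 to 1.11 and Mylk from -0.089 to 0.74. In AngII+3W against AngII+2W, Myh11 ranged from -1.05 to 0.044, Mylk from -0.81 to 0.0041 and Smtn from -0.34 to 0.85.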
